A study of Mus musculus with 12 samples.

Results

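The genes described here are 10 members of the Nodal pathway and its feedback: Nodal, Tdgf1, Lefty1, Lefty2, Cer1, Smad2, Smad3, Foxh1, Smad7 and Pmepa1, out of 21627 protein-coding genes with a territory. The territory of a gene holds the bases, up to 100 kb out, whose closest protein-coding gene end is an end of that gene, on the mm10 build. The peaks of all 12 lists that fall in these bases were assigned to the gene. Pmepa1 was selected on its H3K27ac share in these same data, which was lower at the late stages. The other 9 genes were chosen by their place in the pathway, but with earlier results of these data known. The values that put Pmepa1 in the set are therefore given as a description.

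Nodal is a secreted ligand of the TGF-beta family that patterns the epiblast and is needed for the primitive streak, mesoderm and endoderm. With the coreceptor encoded by Tdgf1 it engages activin receptors, which phosphorylate Smad2 and Smad3; these enter the nucleus and bind DNA with partners such as Foxh1. Targets of the pathway include Nodal itself and its inhibitors: the Lefty proteins and Cer1 act outside the cell, Smad7 at the receptors, and Pmepa1, a membrane protein induced by TGF-beta, holds back receptor-activated Smads. In the mouse, the first intron of Nodal contains an enhancer that answers to Nodal signalling through Foxh1.

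The study mapped H3K27ac, found at active enhancers and promoters, and H3K4me1, typical of enhancers whether active or not, in C57BL/6 mouse embryos with CoBATCH, in which an antibody directs the transposase Tn5 to marked chromatin of single cells. Each mark had 1 list per stage: Pre_PS (pre-streak, E6.0), ES (early streak, E6.0 and E6.5), MS (mid-streak, E6.0 and E7.0), LS (late streak, E7.0 and E7.25), OB (no allantoic bud, E7.25 and E7.5) and EHF (early headfold, E7.5). Extraembryonic tissue was dissected away at Pre_PS, ES, MS and LS; for OB and EHF the labels do not say so. Cells of all types are pooled within a list, so fewer marked cells and less mark per cell cannot be told apart. There were no replicates, so the spread between samples is unknown and no test was made.

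The lists of ES to EHF held 30072 to 39635 H3K27ac peaks over 35.9 to 42.1 Mb and 35646 to 47849 H3K4me1 peaks over 39.1 to 51.3 Mb. Depth was read from the weakest peaks. The background at those peaks was 0.211 to 0.330 fragments for H3K27ac and 0.164 to 0.347 for H3K4me1 from ES to EHF. Pre_PS was far shallower, at 0.0499 and 0.0144 fragments, and 67.3% of its H3K4me1 peaks were at the lowest value in the list. For that reason the early stages below are ES and MS and the late stages OB and EHF. The share of a gene is the number of covered bp in its territory per covered Mb of the list. It follows peak width and number, not signal height.

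Around most pathway genes the marks near the gene were in place at ES and still there at EHF, and Cer1 had no peak of either mark. The H3K27ac share was lower at OB and EHF for Pmepa1, at 0.541 of its early mean, and for Tdgf1, at 0.281. For H3K27ac, 2 of the 9 members with any coverage, Pmepa1 and Tdgf1, had both late shares below both early shares, and 0 had both above. Over all 17381 covered genes, 12.7% lay below and 20.0% above. With 1 list left out, only 3 stages are compared and the shares over all genes are larger too. Without ES 7 of the 9 members lay below, beside 35.0% of all genes, and without OB 4 did, beside 21.9%. Without MS 3 members lay above, beside 44.3% of all genes. For H3K4me1, 4 of 9 members lay above (Smad7, Tdgf1, Smad2 and Lefty2) and 1 lay below (Pmepa1), against 14.3% above and 13.2% below among 17960 genes. Without EHF 4 of the 9 lay below, beside 35.0% of all genes, and without MS 3 did, beside 28.9%. In the upper 50% of each list 0 members lay above, beside 11.9% of all genes. The median H3K27ac difference, mean of OB and EHF minus mean of ES and MS, was −6.70 bp per Mb over the covered members and 0.786 over all genes. For H3K4me1 these medians were 1.54 over the members and 0.412 over all genes. The counts for Pmepa1 restate what placed it in the set.

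**Figure D1:**
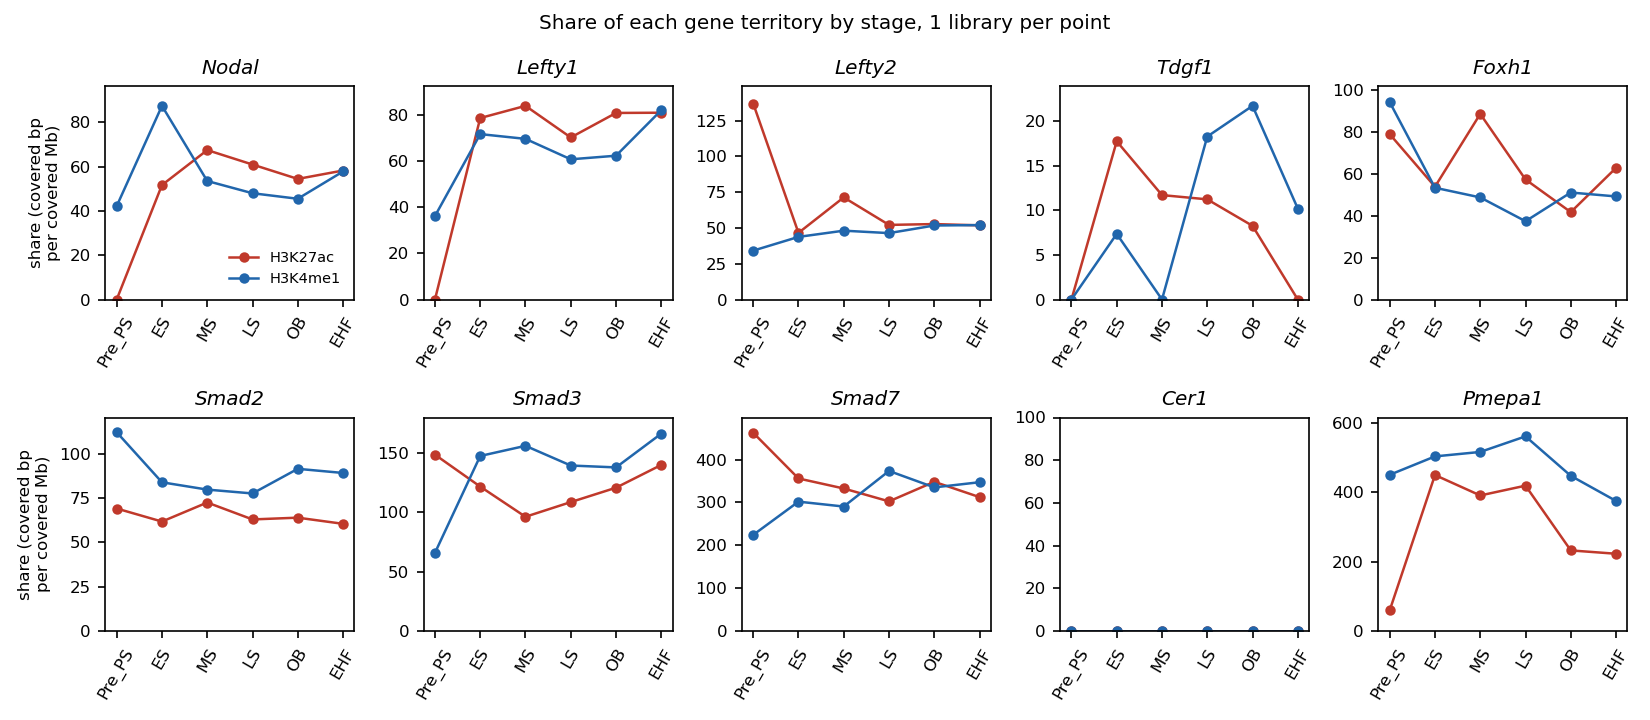
Share of each gene's territory (covered bp per covered Mb of the list, vertical axis) by stage (horizontal axis) for H3K27ac in red and H3K4me1 in blue, 1 library per point and a scale of its own for each gene. Pmepa1 is at 232 and 223 at OB and EHF for H3K27ac, against 450 and 391 at ES and MS, while Lefty1 stays between 70.4 and 84.1 from ES on and Cer1 is at 0 throughout.

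Nodal, the ligand (chr10:61417972-61425338, plus strand), had H3K27ac shares, in bp per Mb from Pre_PS to EHF, of 0, 51.7, 67.5, 61.0, 54.5 and 58.3. Its H3K4me1 shares were 42.2, 87.5, 53.6, 48.0, 45.5 and 57.9 bp per Mb. The late H3K27ac values lay between the ES and MS values, and ES had the highest H3K4me1 share of the 6 stages. The mean difference was −3.23 bp per Mb for H3K27ac and −18.8 for H3K4me1, but single lists and settings moved both. The H3K27ac value was −11.1 without ES, 4.67 without MS and 30.5 against Pre_PS and ES. The H3K4me1 value was −1.86 without ES, −35.8 without MS, 0.46 in the upper 50% of each list and 5.79 when every list was reduced to equal peak numbers by −log10 q.

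Coverage of Nodal lay mostly in 2 regions inside the gene. The region at its start, chr10:61418001-61419836, carried 1600, 1783, 1627, 1458 and 1622 bp of H3K27ac from ES to EHF and none at Pre_PS. It begins 0.029 kb inside the annotated start, and H3K4me1 covered it at all 6 stages, with 989 bp at Pre_PS. A further region, chr10:61422919-61423732, carried 488 to 642 bp of H3K27ac at each stage from ES to EHF. The peak of highest fold in the territory stood at percentile 91.5 of the H3K27ac list at ES, 84.5 at MS, 83.3 at LS, 79.0 at OB and 66.6 at EHF. Its width stayed alike over these stages, and its rank within the list was lowest at EHF. A small site 11.6 kb before the gene, chr10:61406049-61406397, had H3K27ac at LS, as a peak of the lowest fold in that list, and H3K4me1 at ES and EHF.

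Tdgf1, the coreceptor also called Cripto (chr9:110939608-110946158, minus strand), had H3K27ac shares of 0, 17.8, 11.7, 11.2, 8.27 and 0 bp per Mb over the 6 stages. Its H3K4me1 shares were 0, 7.37, 0, 18.3, 21.7 and 10.2 bp per Mb. The late H3K27ac shares lay below both early ones and the late H3K4me1 shares above both. These values rest on few bases. A site 0.305 kb before the start, chr9:110946463-110946958, held 383, 421, 474 and 301 bp of H3K27ac at ES, MS, LS and OB. It held none at EHF, where 378 bp of it carried H3K4me1. The other H3K27ac site, chr9:110931802-110932154, lay 7.45 kb outside the end of lower coordinate and held 353 bp at ES alone. H3K4me1 at OB lay at 3 sites, with 364, 298 and 446 bp. With the upper 50% of each list by −log10 q, Tdgf1 had no coverage in either mark at ES, MS, OB and EHF. No peak overlapped the Tdgf1 gene itself in any of the 12 lists.

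**Figure D2:**
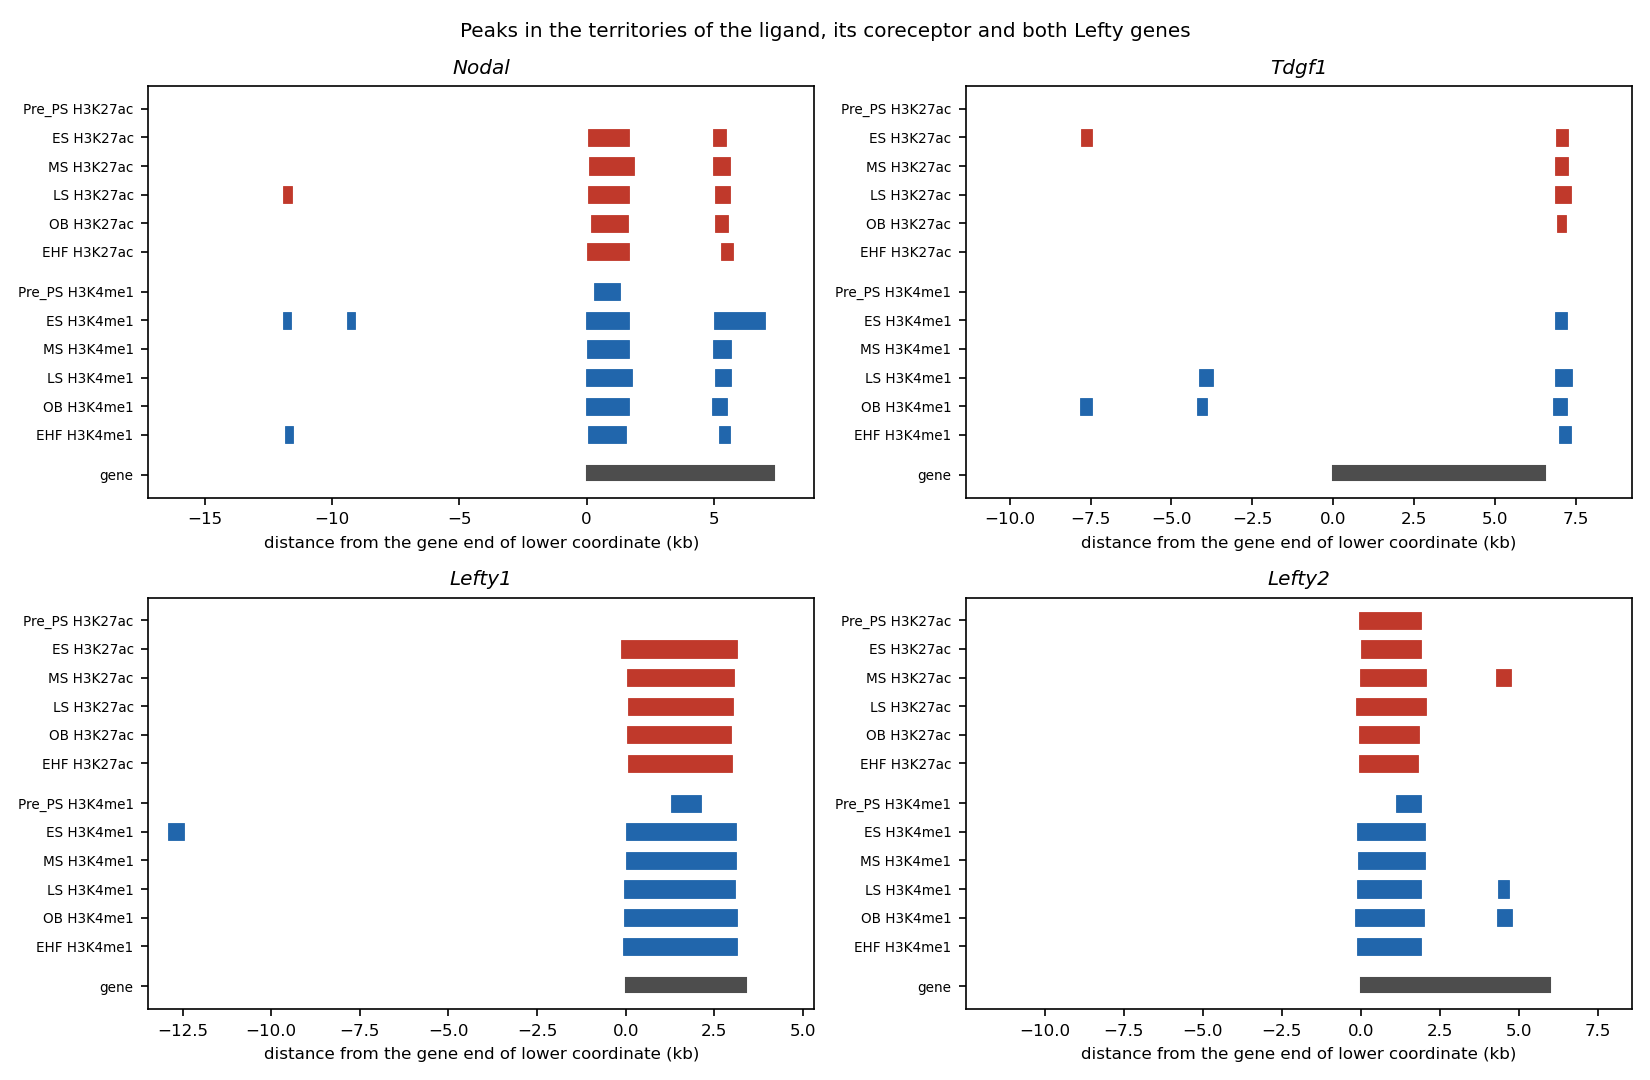
Peaks in the territories of Nodal, Tdgf1, Lefty1 and Lefty2, as bars to scale along the distance from the gene end of lower coordinate (kb), 1 row per stage and mark (H3K27ac red, H3K4me1 blue) and the gene in grey. The bars at the gene are in the same place from ES to EHF for Nodal, Lefty1 and Lefty2, and the Tdgf1 site nearest the gene has no H3K27ac bar at Pre_PS or EHF.

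The Lefty genes, whose products block Nodal at its receptors, both lie on chromosome 1. Lefty1 (chr1:180935022-180938401) had H3K27ac shares of 0, 78.8, 84.1, 70.4, 81.0 and 81.1 bp per Mb over the 6 stages. A single H3K27ac region of 3.27 kb, chr1:180934899-180938164, made up its whole coverage and spanned nearly all of the 3.38 kb gene. At each stage from MS to EHF, every base with H3K27ac there also carried H3K4me1. Lefty2 (chr1:180893108-180899107) had H3K27ac shares of 137, 46.6, 71.3, 52.1, 52.7 and 51.8 bp per Mb, and its covered length in the region at the end of lower coordinate was 1952, 1929, 2089, 2197, 1918 and 1875 bp. The high Pre_PS share thus goes with a short list and not with a longer peak. Lefty2 was the gene of this pair with H3K27ac at Pre_PS; for Lefty1 the nearest Pre_PS peak of that mark lay 3.54 kb away.

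H3K4me1 shares of Lefty1 were 36.2, 71.9, 69.8, 60.9, 62.5 and 82.2 bp per Mb, and those of Lefty2 34.1, 43.8, 48.1, 46.4, 51.7 and 52.0. For Lefty2 both late values exceeded both early ones, by 5.94 bp per Mb in the mean. That difference was 3.76 without ES and became −1.23 with equal peak numbers.

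Cer1, a secreted protein that binds Nodal (chr4:82881751-82885151, minus strand), had no peak of either mark at any of the 6 stages in its territory of 20.7 kb. The nearest peak lay between 21.6 and 22.0 kb from the gene in all 12 lists, past the limit toward Zdhhc21 at 21.9 kb. Cer1 is known for expression in anterior visceral endoderm and early definitive endoderm.

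The 250 bases before the start are shown for the 4 members with an entry in the RefSeq promoter table (GRCm38.p6), because marks at this place set them apart: all 250 bp of Smad3 were covered by both marks in all 12 lists, and 0 bp of Cer1 in any. They are written 5′ to 3′ on the strand of the gene, with CG dinucleotides in capitals. They lie at chr10:61417722-61417971 (Nodal, plus), chr9:110946159-110946408 (Tdgf1, minus), chr9:63757995-63758244 (Smad3, minus) and chr4:82885152-82885401 (Cer1, minus).
Nodal: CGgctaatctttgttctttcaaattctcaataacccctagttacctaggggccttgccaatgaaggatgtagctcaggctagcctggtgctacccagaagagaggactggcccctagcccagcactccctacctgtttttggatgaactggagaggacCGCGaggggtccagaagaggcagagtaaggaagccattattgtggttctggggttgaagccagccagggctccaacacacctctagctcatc
Tdgf1: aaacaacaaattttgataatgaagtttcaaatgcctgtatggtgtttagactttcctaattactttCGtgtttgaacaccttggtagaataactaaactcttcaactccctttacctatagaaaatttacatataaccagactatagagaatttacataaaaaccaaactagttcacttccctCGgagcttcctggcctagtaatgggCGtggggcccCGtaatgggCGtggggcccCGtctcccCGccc
Smad3: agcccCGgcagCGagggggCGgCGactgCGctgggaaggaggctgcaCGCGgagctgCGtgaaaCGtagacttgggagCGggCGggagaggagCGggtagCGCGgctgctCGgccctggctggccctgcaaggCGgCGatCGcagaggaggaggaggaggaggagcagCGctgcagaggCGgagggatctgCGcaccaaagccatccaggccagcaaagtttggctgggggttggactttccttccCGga
Cer1: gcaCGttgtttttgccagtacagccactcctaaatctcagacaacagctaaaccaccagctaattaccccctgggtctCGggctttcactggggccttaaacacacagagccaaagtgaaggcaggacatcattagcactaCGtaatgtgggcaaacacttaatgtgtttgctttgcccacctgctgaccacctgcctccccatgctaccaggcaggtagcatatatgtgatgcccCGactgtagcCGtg
The Smad3 promoter holds 22 CG dinucleotides, Tdgf1 7, Cer1 5 and Nodal 3, against a median of 6 over the 32851 promoters of the table. Smad3 stands at percentile 85.2 of that table and Nodal at 29.0. The Nodal window had no H3K27ac at any stage and 41 to 43 bp of H3K4me1 at ES, LS and OB, since its marked region starts inside the gene. The Tdgf1 window had 13 bp of H3K4me1 at OB and no other coverage. Both strands were searched for AATNCACA, a motif of Foxh1, and for GTCTAGAC and the shorter CAGAC, motifs of Smad proteins, and the longer Smad motif contains no copy of the shorter. AATNCACA was in none of the 4 windows and in 3.18% of all promoters. GTCTAGAC was also in none of the 4, and in 0.167% of all. CAGAC was found in the Tdgf1 window and in the Cer1 window and is in 42.2% of all promoters.

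Smad2 and Smad3, the Smads that the activated receptors phosphorylate, carried both marks at a gene end at all stages from ES on. This was the end of lower coordinate for Smad2 and the start for Smad3. Smad2 (chr18:76241090-76311748) had H3K27ac shares of 69.0, 61.7, 72.4, 62.9, 63.9 and 60.4 bp per Mb and H3K4me1 shares of 112, 83.8, 79.7, 77.5, 91.4 and 89.1. All 7 of its H3K4me1 peaks at Pre_PS were at the lowest value of that list. The late H3K4me1 shares lay above ES and MS by 8.48 bp per Mb in the mean, a difference that became −10.9 in the upper 50% of each list. A distal site 67.1 kb past the end of higher coordinate, chr18:76378802-76379400, carried 579, 531, 518 and 383 bp of H3K27ac from Pre_PS to LS and none at OB or EHF. H3K4me1 was present there at all 6 stages, with 533 and 599 bp of the site at OB and EHF.

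Smad3 (chr9:63646766-63757994, minus strand) had H3K27ac shares of 148, 122, 96.2, 108, 121 and 140 bp per Mb. It was the member with the largest positive H3K27ac difference, 21.4 bp per Mb, although OB and ES differed by under 1 bp per Mb and the groups overlapped. The difference was 8.65 without MS, 11.8 without EHF, 34.1 without ES, 8.03 within 50 kb, 39.5 with equal peak numbers and −4.79 against Pre_PS and ES, so its size depends on single lists and its sign on the choice of early stages. Its H3K4me1 shares were 65.8, 147, 156, 139, 138 and 166 bp per Mb. Both H3K4me1 regions gained by members belonged to Smad3. Inside the gene, chr9:63726475-63727103 had 477, 629 and 527 bp of H3K4me1 at LS, OB and EHF and none earlier, while H3K27ac already covered 406 bp of it at ES. Before the start, 92.9 kb away, chr9:63850856-63851412 had 308, 358 and 328 bp of H3K4me1 at LS, OB and EHF, and H3K27ac at OB alone. The 4 H3K27ac regions kept from ES to EHF were the start, with 1811 to 2614 bp at these stages, and 3 sites inside the gene. The widest of those, chr9:63701418-63703064, had 1018 and 1216 bp at OB and EHF, against 909 and 349 bp at ES and MS.

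Foxh1, the DNA-binding partner of the Smads (chr15:76667829-76671614), overlaps Kifc2 and ends 0.029 kb from Ppp1r16a, which leaves it a territory of 5.72 kb. Its H3K27ac shares were 78.8, 53.7, 88.4, 57.2, 41.6 and 62.7 bp per Mb, and its H3K4me1 shares 94.0, 53.2, 48.6, 37.3, 51.0 and 49.1. No order of stages stood out in either mark. The H3K27ac region there, chr15:76666130-76672490, was present at all 6 stages and has its middle in the territory of Kifc2, so these peaks cannot be assigned between the neighbours. The peak of highest fold among them stood at percentile 99.1 of the H3K27ac list at EHF, against 96.5 at ES.

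Smad7, the inhibitory Smad that acts at the receptors (chr18:75367365-75395935), had H3K27ac shares of 463, 356, 333, 303, 348 and 313 bp per Mb and H3K4me1 shares of 224, 302, 291, 374, 335 and 347. For H3K4me1 both late values were above both early ones, by 45.0 bp per Mb in the mean, at percentile 98.8 of all genes. Of its 9 H3K27ac regions 5 were kept from ES to EHF, and the other 4 were missing at 1 or more of these stages. The widest, chr18:75366145-75371024 at the end of lower coordinate, held 4364 to 4858 bp at each of the 6 stages. A distal site 23.3 kb outside the gene, chr18:75342192-75344033, was also present at all 6, with 1471 to 1816 bp from ES on and 1300 bp at Pre_PS. Another, chr18:75357854-75359799, held 1861 bp at ES, 351 at LS and 306 at OB and none at Pre_PS, MS or EHF.

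Pmepa1 (chr2:173224458-173276731) had the largest difference in bp per Mb between the late and early stages of the 10 genes, in both marks. By the ratio of late to early mean it was not the most changed. In H3K27ac the ratio was 0.281 for Tdgf1, against 0.541 for Pmepa1. In H3K4me1 it was 0.733 for Nodal and 4.34 for Tdgf1, against 0.807 for Pmepa1. Its H3K27ac shares were 59.6, 450, 391, 419, 232 and 223 bp per Mb in stage order, over 0.849, 18.6, 14.0, 17.7, 8.45 and 8.06 kb. Both late values were far below ES, MS and LS, and LS lay between ES and MS. The difference of −193 bp per Mb, a ratio of 0.541, was the 3rd lowest of 17381 genes. That rank restates the value on which Pmepa1 was selected. Leaving out ES, MS, OB or EHF gave differences of −222 to −163. Taken against Pre_PS and ES the difference was −27.1, since the shallow Pre_PS list had a single peak there.

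H3K4me1 around Pmepa1 had shares of 450, 503, 516, 561, 447 and 375 bp per Mb, over 10.5, 24.9, 22.8, 28.8, 22.8 and 14.6 kb. EHF was the lowest of all stages, and 14 of the 18 Pre_PS peaks were at the lowest value of their list. The difference was −98.6 bp per Mb, a ratio of 0.807 and the 8th lowest of 17960 genes. It was −62.4 without EHF and −43.5 with equal peak numbers, and in that setting and in the upper 50% of each list the late and early values overlapped. Of the H3K4me1 bases around Pmepa1, 37.0% and 52.2% also carried H3K27ac at OB and EHF, against 62.7% and 57.5% at ES and MS. Around the other members together this share was 67.3% and 72.2% at OB and EHF, against 71.7% and 74.2% at ES and MS. Over all genes it was 67.1% and 79.0% at OB and EHF, against 71.3% and 69.0% at ES and MS. Since Pmepa1 was selected on its lower late H3K27ac share, its values here are a description.

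The H3K27ac background read from the weakest peaks was 0.230 and 0.289 fragments at OB and EHF, against 0.262 and 0.211 at ES and MS. Peak counts of that mark were 34823 and 33031 at OB and EHF, against 36930 and 30072 at ES and MS. The H3K4me1 background, given above, was higher at both late stages than at both early ones. The part of depth in the Pmepa1 values was not tested. Its part in the members' H3K4me1 differences, and in their lost and gained H3K4me1 regions, was not tested either.

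**Figure D3:**
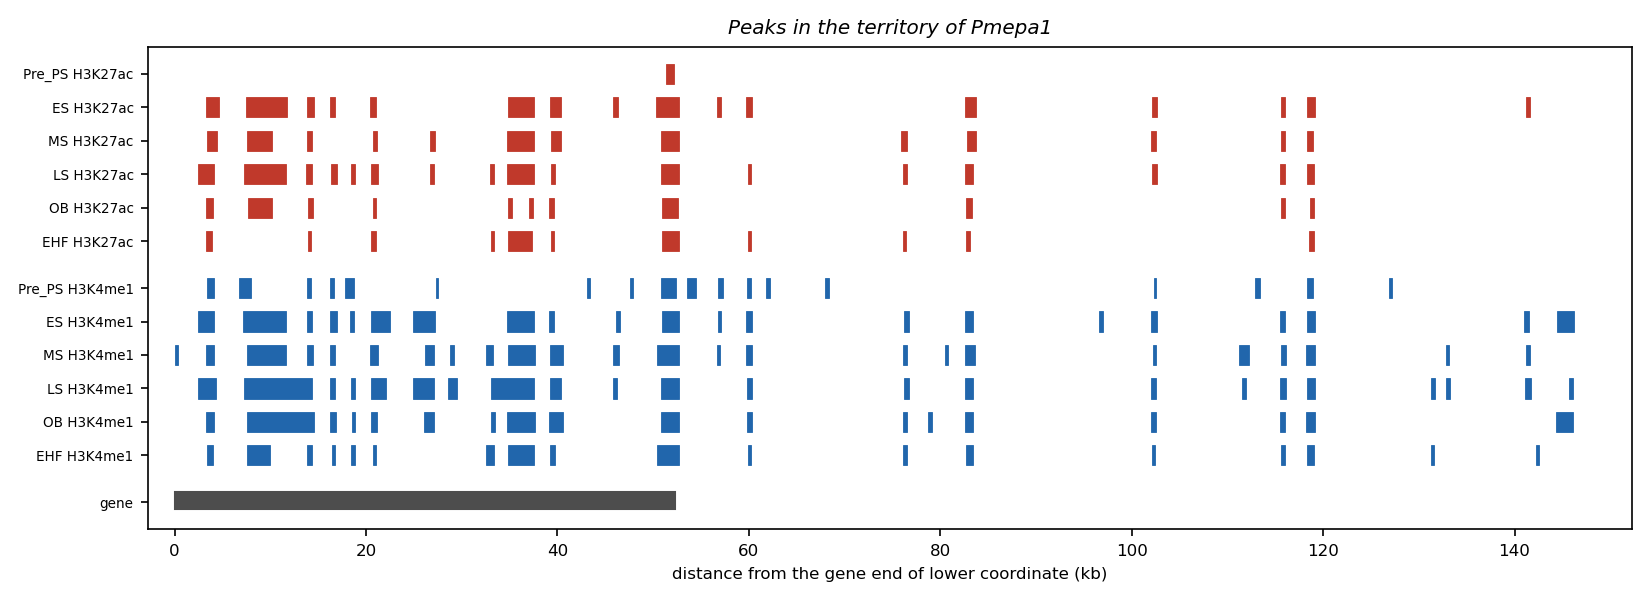
Peaks in the territory of Pmepa1, as bars to scale along the distance from the gene end of lower coordinate (kb), 1 row per stage and mark (H3K27ac red, H3K4me1 blue) and the gene in grey. The widest H3K27ac bar inside the gene spans 4273 and 2673 bp at ES and MS, 2465 bp at OB and is missing at EHF, and the bar at the end of higher coordinate is present at every stage.

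The lower coverage was spread over many sites and not set by a single peak. The end of higher coordinate, chr2:173274749-173277160, kept H3K27ac at all 6 stages, with 849, 2379, 1890, 1815, 1677 and 1790 bp. The widest region, chr2:173231708-173236156 inside the gene, held 0, 4273, 2673, 4378, 2465 and 0 bp, while H3K4me1 still covered 2451 bp of it at EHF. The next widest, chr2:173259148-173262042, held 0, 2724, 2795, 2827, 731 and 2539 bp, so that it was narrow at OB and wide again at EHF. Of the 8.45 and 8.06 kb at OB and EHF, 4.74 kb was covered at both stages. Of the 8 regions kept from ES to EHF, 7 had fewer covered bp at both OB and EHF than at both ES and MS. Since Pmepa1 was selected on its lower late share, this count is a description. Fewer bp at both late stages were found in 22.3% of all 22453 kept H3K27ac regions. Among the kept regions of the other members this held for 1 of 2 of Nodal, the single ones of Lefty1 and Lefty2, 1 of 5 of Smad7, 0 of 4 of Smad3 and not for the single one of Smad2. The region chr2:173226900-173229051, 2.44 kb inside the end of lower coordinate, was among the 7, with 730 and 633 bp at OB and EHF, against 1329 and 1057 bp at ES and MS. So was chr2:173307000-173308200, 30.3 kb past the end of higher coordinate, with 583 and 438 bp at OB and EHF, against 1201 and 964 bp at ES and MS. The exception, chr2:173244914-173245678, had 389 and 490 bp at OB and EHF, against 546 and 408 bp at ES and MS. For H3K4me1, 4 of the 13 kept regions were narrower in this way, beside 14.1% of all kept H3K4me1 regions.

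Farther out, chr2:173326523-173327135, 49.8 kb past the end of higher coordinate, held 527, 508 and 486 bp of H3K27ac at ES, MS and LS and none at Pre_PS, OB or EHF. H3K4me1 covered 435 and 299 bp of that site at OB and EHF. A site 63.3 kb past the same end, chr2:173339991-173340526, held 512, 459, 531 and 452 bp from ES to OB and none at EHF. A site 66.1 kb past it, chr2:173342808-173343565, was kept at all 5 stages from ES on, with 422 and 481 bp at OB and EHF, against 751 and 557 bp at ES and MS. At the 100 kb limit, the last H3K27ac region inside lay 88.9 kb from the gene and was seen at ES with 435 bp, and the first outside lay 103 kb away and was seen at LS with 380 bp.

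The H3K27ac values of Pmepa1 by base are also a description, because the gene was selected on its lower late share. Base by base, Pmepa1 had 12.6 kb with H3K27ac at both ES and MS. Of these bases 35.0% were also covered at both OB and EHF, and 21.4% (2.69 kb) at neither. Over all genes 84.7% were covered at all 4 stages and 5.13% lost, and over the other members together 83.3% and 4.25%. No base was gained around Pmepa1 between these pairs of stages. Of its 2.69 kb of lost bases, 74.4% carried H3K4me1 at OB or EHF, close to the 74.3% over the lost bases of all genes. For H3K4me1, 69.6% of 17.0 kb was covered at all 4 stages and 7.38% lost, against 84.5% and 4.05% over all genes. Smad2 had a similar lost share of H3K27ac bases, 23.7%, but of 1.96 kb and at the single distal site given above. Tdgf1 had a lost share of 21.4% too, of 0.383 kb, and 0% of those bases were covered at all 4 stages.

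**Figure D4:**
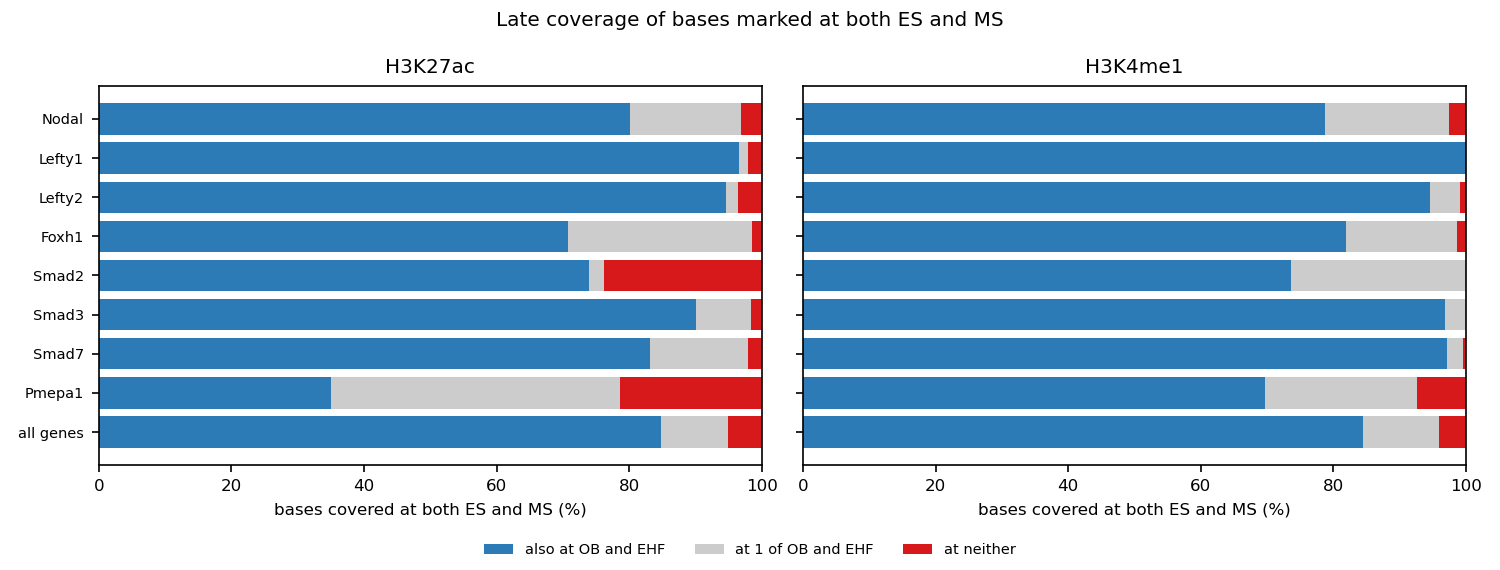
Bases covered at both ES and MS (100% in each bar), divided by whether they were also covered at both OB and EHF (blue), at 1 of them (grey) or at neither (red), for the members with at least 1 kb of such bases and for all genes, H3K27ac left and H3K4me1 right. For H3K27ac, Pmepa1 keeps 35.0% at both late stages, against 84.7% over all genes. Pmepa1 was selected on its lower late H3K27ac share in these data, so its H3K27ac bar is a description.

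In regions, made by merging the peaks of a mark over the stages, the members had 50 for H3K27ac and 90 for H3K4me1. Kept regions, present from ES to EHF, made up 22 of the 50 for H3K27ac (44.0%), against 43.5% of all regions. For H3K4me1 they made up 32 of 90 (35.6%), against 35.0%. Both shares were near those of the genome. The H3K27ac regions included 2 lost ones, present at ES and MS and absent at OB and EHF, which are the Pmepa1 and Smad2 sites above, and 0 gained ones, against 2.28% lost and 2.38% gained among all 51619 regions. The H3K4me1 regions included 3 lost ones, all of Pmepa1, and 2 gained ones, both of Smad3, against 2.32% lost and 1.23% gained among 77300. With 1 list left out these counts were larger, and so were the shares over all regions. Lost H3K27ac regions were 7 of 50 without MS, beside 11.8% of all regions, 5 without ES, beside 5.71%, and 5 without OB, beside 4.93%. Gained H3K27ac regions were 2 without ES, beside 6.93%, 2 without EHF, beside 7.98%, 1 without MS, beside 3.8%, and 1 without OB, beside 7.13%. Lost H3K4me1 regions were 11 of 90 without ES, beside 7.64%, 9 without MS, beside 11.2%, and 5 without OB, beside 7.3%. Gained H3K4me1 regions were 9 without EHF, beside 7.19%, 6 without ES, beside 3.87%, 4 without MS, beside 2.55%, and 4 without OB, beside 2.77%.

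The lost H3K4me1 regions of Pmepa1 were chr2:173270278-173271040, chr2:173281145-173281711 and chr2:173365440-173366215. Each had H3K27ac at ES, over 468, 383 and 435 bp in that order, and at no other stage. Their peaks had the authors' folds of 2.53, 2.57 and 5.08 at ES, where the list median was 4.42, and of 2.60, 2.90 and 2.83 at MS, where it was 4.56. The peak of fold 5.08 was thus above the median of its list and the other 5 were below. The lowest folds in the H3K4me1 lists of OB and EHF were 3.01 and 3.23, higher than those 5. Absence of peaks there is therefore not shown to be a loss of the mark.

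**Figure D5:**
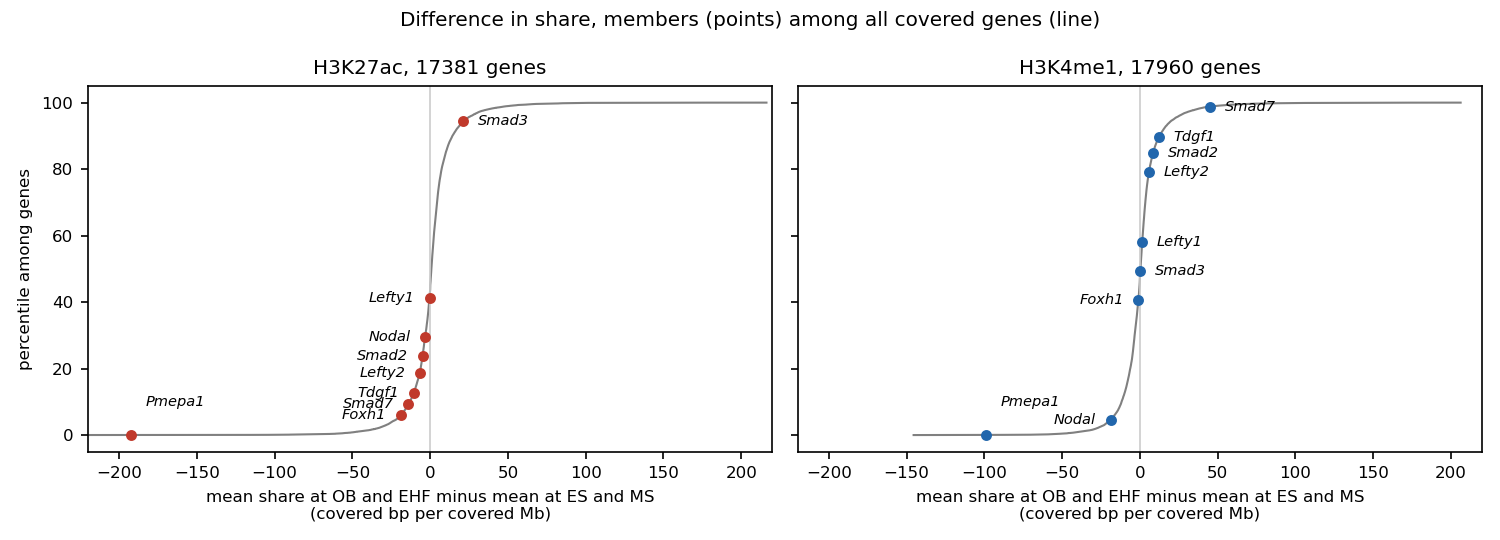
Mean share at OB and EHF minus mean share at ES and MS (covered bp per covered Mb, horizontal axis) against percentile among all covered genes (vertical axis), with all genes as a grey line and the 9 covered members as points, H3K27ac left and H3K4me1 right. Pmepa1 lies at the low end in both panels, at −193 and −98.6, and the other members lie between −18.9 and 45.0.

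Genes whose pattern over the 10 libraries of ES to EHF was most like that of Pmepa1 were Otog, Otof, Mta3, Adamts2 and Map3k14, with Pearson r of 0.952, 0.937, 0.921, 0.914 and 0.911 among 5155 genes with a mean share of at least 50 bp per Mb in each mark. Each share was divided by the gene's mean over the stages of its mark, and all genes share the same lists and depths. Otog, which encodes a protein of the inner ear, had H3K27ac shares of 119 and 93.4 at OB and EHF, against 229 and 179 at ES and MS. Mta3, a subunit of the NuRD complex, had 62.8 and 53.3 at OB and EHF, against 109 and 88.7 at ES and MS. For Nodal the most alike were Xk, Lmbr1l, Ehhadh, Tmem145 and Rai14, with r of 0.957, 0.955, 0.954, 0.951 and 0.948 among 11851 genes with a mean share of at least 20.

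Among other genes of the pathway, calls went both ways. For H3K27ac, 20.0% of all covered genes were above and 12.7% below. Of 10 ligands, ligand-binding and processing genes, H3K27ac was above in 2 (Gdf1 and Tgfb1) and below in 2 (Fst and Inhba). Gdf1, a ligand that pairs with Nodal, had 158 and 178 bp per Mb at OB and EHF, against 141 and 89.8 at ES and MS. Of 8 receptors and coreceptors, H3K27ac was above in 3 (Acvr2b, Cfc1 and Bambi) and below in 1. That gene was Tgfbr2, the TGF-beta type II receptor, with 61.4 and 53.2 at OB and EHF, against 68.2 and 93.2 at ES and MS. Of 17 Smads and partners, 6 were above and 2 below. Ski, a corepressor of Smads, was above with 367 and 375 at OB and EHF, against 329 and 331 at ES and MS. Below were Skil, its relative, with 62.4 and 62.2 against 74.1 and 69.7, and Ldlrad4, a relative of Pmepa1 that also restrains TGF-beta signalling, with 48.5 and 52.1 against 54.3 and 55.1.

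Of 12 target genes, H3K27ac was above in 1 and below in 3, beside 20.0% and 12.7% of all covered genes. Lhx1, a factor of the streak and head organizer, had 154 and 160 bp per Mb at OB and EHF, against 249 and 181 at ES and MS. Eomes, a T-box factor of mesoderm and endoderm, had 97.8 and 96.4 at OB and EHF, against 130 and 124 at ES and MS. Gsc, an organizer factor, had 141 and 133 at OB and EHF, against 157 and 150 at ES and MS. Foxa2, a factor of endoderm and node, was above, with 174 and 185 at OB and EHF, against 148 and 152 at ES and MS. The median difference was −5.73 bp per Mb over the targets, −2.49 over the covered ligands, 3.18 over the receptors and 4.08 over the Smads and partners, beside 0.786 over all covered genes.

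H3K4me1 was above in 3 and below in 2 of the 10 ligands and processing genes, beside 14.3% and 13.2% of all covered genes. Of the 8 receptors it was above in 2 and below in 1. Of the 17 Smads and partners it was above in 2 and below in 1. Of the 12 targets it was above in 0 and below in 1. Furin, a convertase that matures Nodal, had 282 and 266 bp per Mb at OB and EHF, against 220 and 186 at ES and MS. Acvr1b, the activin type I receptor, was above with 199 and 97.9 at OB and EHF, against 97.6 and 77.2 at ES and MS. Gsc was the target below, with 132 and 160 at OB and EHF, against 224 and 207 at ES and MS. Gdf3, a ligand related to Nodal, had no peak of either mark at any stage, as Cer1 did.

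Markers of other tissues were covered as follows, where 20.0% of all covered genes were above and 12.7% below in H3K27ac. For 12 visceral endoderm markers the summed H3K27ac share was 648 and 728 bp per Mb at OB and EHF. At ES and MS it was 610 and 638. Of these markers 3 were above (Foxa2, Gata4 and Amn) and 0 below, and Ttr and Afp had no H3K27ac at any stage. Foxa2 is also counted among the targets. The summed share of 8 trophoblast markers was 973 and 860 at OB and EHF, against 806 and 804 at ES and MS. Of these, 3 were above (Hand1, Esx1 and Cdx2) and 0 below. The summed share of 8 epiblast markers was 580 and 652 at OB and EHF, against 612 and 566 at ES and MS. Of these, 4 were above (Utf1, Dnmt3b, L1td1 and Nanog) and 1 below (Fgf5). The part of these tissues in the values of Pmepa1 and Tdgf1 was not tested.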

How the data were processed

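Single cells of mouse embryos were profiled for H3K27ac and H3K4me1, and 12 broad peak lists were deposited, 1 for each of 6 stages and 2 marks. The tools were Bowtie2, Picard, MACS2 and deepTools and the build mm10, per the submitters' processing notes. The sources used here do not give versions, settings, cell numbers or total fragments. Each peak has a deposited fold (a ratio over local background), which served to describe peaks of the same list. Its −log10 p and −log10 q come from the authors' peak caller, and −log10 q ranked the peaks of a list. The deposited score was not used.

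From these lists, peaks on chromosomes 1 to 19 and X were set against both ends of 21627 protein-coding genes (RefSeq, GRCm38, which is mm10) with Python 3.11.15, NumPy 2.4.6 and pandas 2.3.3. Depth was solved from the fold and p of the weakest peaks with whole pileups up to 20 and a tolerance of 0.001 on −log10 p. Merged regions were present where a peak overlapped them by at least 1 bp and were assigned to the territory that holds their middle. The steps were tested on simulated data. A gene was called above or below where both late shares lay beyond both early ones. Strand was known for the 4 members with a promoter sequence. With 1 list per stage and mark there is no test, and precision beyond the stated depth is unknown. The alternatives were a limit of 50 kb, no lowest-value peaks, equal peak numbers, the upper 50%, other early stages, covered bp, other merging and overlap, and each list left out.

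The text names all 10 members, up to 4 called genes per list, mark and direction by size of difference (a selection of these is printed), and the 5 genes most like Pmepa1 and Nodal. The members and all gene lists were chosen with earlier results of these data known.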

Additional observations from a re-analysis of the deposited data

How the results depend on the processing

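The lists give no replicates, so these alternatives show how far values rest on a setting, not their error. For the count of members below in H3K27ac (2, beside 12.7% of all genes), the upper 50% of each list gave 1, beside 11.6%. Early stages Pre_PS and ES gave 1, beside 10.0%, and covered bp without division by covered Mb 6, beside 20.2%. For the count above (0, beside 20.0%), a 50 kb limit gave 1, beside 20.4%. Leaving out peaks at the lowest value gave 1, beside 20.0%, and equal peak numbers 1, beside 24.9%. The upper 50% gave 3, beside 14.9%, and Pre_PS and ES 2, beside 21.1%. In H3K4me1, the count below (1) was 0 with equal peak numbers and in the upper 50%, and 2 with Pre_PS and ES or with covered bp; the count above (4) was 2 with equal peak numbers, 0 in the upper 50% and 1 with covered bp. The Pmepa1 difference kept its sign in every setting run. For H3K27ac it was −27.1 bp per Mb with Pre_PS and ES; for H3K4me1 it was −65.1 without peaks at the lowest value, −43.5 with equal peak numbers and −65.7 with Pre_PS and ES. Lost H3K27ac regions (2, beside 2.28% of all regions) were 0 within 50 kb, beside 2.28%, and 1 in the upper 50%, beside 1.28%. They were 1 with Pre_PS and ES, beside 0.347%, and 4 where peaks had to cover 50% of a region, beside 3.06%. Gained ones (0, beside 2.38%) were 1 with equal peak numbers, beside 2.40%, and 1 with Pre_PS and ES, beside 3.71%. Lost H3K4me1 regions (3, beside 2.32% of all regions) were 0 with equal peak numbers and 1 with Pre_PS and ES. Gained ones (2, beside 1.23%) were 1 within 50 kb, with equal peak numbers and with gaps of 500 bp merged, and 0 in the upper 50%. The shares over all regions in these H3K4me1 settings are not given here, so these counts cannot be set against them. Among the members called above or below, these differences changed sign: Lefty2 H3K4me1 was −1.23 with equal peak numbers, and Smad2 H3K4me1 was −10.9 in the upper 50% and −7.68 with Pre_PS and ES. Apart from settings that use fewer peaks or a shallower list by construction, the cause was not tested.

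Leaving out ES, MS, OB or EHF in turn, an alternative chosen after seeing the data, gave 3 to 7 members below in H3K27ac, beside 21.9% to 35.0% of all genes, and 0 to 3 above, beside 31.6% to 44.3%. In H3K4me1 it gave 1 to 4 below, beside 24.1% to 35.0%, and 4 to 6 above, beside 25.7% to 42.3%. Shares over all genes were thus larger than with both stages in each pair, at 12.7%, 20.0%, 13.2% and 14.3%. The Pmepa1 difference ranged between −222 and −163 in H3K27ac and between −135 and −62.4 in H3K4me1. Lost regions were 2 to 7 for H3K27ac and 3 to 11 for H3K4me1, beside 3.84% to 11.8% and 2.98% to 11.2% of all regions. Gained regions were 1 to 2 and 4 to 9, beside 3.8% to 7.98% and 2.55% to 7.19%. No paired analysis was possible because each stage and mark had 1 list. A site without a peak is below the threshold of its list at its depth, not shown to be unmarked, which bears most on Pre_PS.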
